A study of Mus musculus with 15 samples.

Results

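The genes described here were 48 mouse genes of mitosis and cell division, from the kinase that starts mitosis to the proteins that cut the daughter cells apart. They were named as a list from their known function, with no threshold on any measured value, and all 48 were found among the 24027 gene symbols held in each of the 4 tables of comparisons that were deposited. The list was chosen with earlier results of these data known, so counts over it are not independent support. Total RNA from skin of female SKH1 mice, a hairless laboratory stock that develops skin tumours under ultraviolet light, was sequenced in 15 libraries, 3 for each of 5 groups. The mice were 6 to 8 weeks old, and their skin received ultraviolet B at 500 J/m2, 5 days a week over 10 weeks, which raises actinic keratoses, the scaly precursor lesions of squamous cell carcinoma. Mice in the placebo arm received 0.25 g of a topical cream without the agent on 5 days per week, and 4 kinds of skin were taken from that arm: the lesions, the perilesional skin beside them, exposed skin that was non-lesional, and skin that was non-UV exposed. The treated arm received 0.25 g of GZ21T cream on 5 days per week and gave lesional skin alone, so no GZ21T skin outside a lesion was compared. All 5 groups shared strain, sex and a topical cream, and the non-UV skin carried the placebo cream as well.

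Cells enter mitosis when the kinase Cdk1, bound to cyclin A or cyclin B, becomes active. The spindle then attaches chromosomes at their kinetochores under the watch of the spindle assembly checkpoint, and the anaphase-promoting complex (APC/C) with its activator Cdc20 ends mitosis by destroying cyclin B and securin. In skin, the dividing cells are mostly basal keratinocytes and, in the growing hair follicle, matrix cells. Many genes of this set are switched on late in the cell cycle through a promoter element called the cell cycle genes homology region (CHR), bound by the DREAM complex in resting cells and by MYB-MuvB with FOXM1 in dividing cells, often beside CCAAT boxes that bind NF-Y.

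Promoters are shown first, since most of these genes share a pair of short elements there. RefSeq promoters of build GRCm38.p6, 250 bases before to 50 bases after the start of transcription, were matched for 39 of the 48 genes, as 43 promoters. The other members were Kif20a, Cdc25c, Ska1, Foxm1, Pbk, Tpx2, Dlgap5, Ccna2 and Aurkb. The core of the CHR was searched as TTTGAA or TTTAAA and the box as CCAAT, each on both strands. One or the other CHR core was found in 36 of the 43 promoters (83.7%), against 27.6% of all 32851 promoters of the same length. A CCAAT box was found in 32 of 43 (74.4%), against 37.4% of all promoters, and a core together with a box in 30 of 43 (69.8%), against 10.7%. In 1 member promoter a core and a box overlapped. The letters TTTCGCGC or TTTGGCGC or TTTCCCGC, a type of site bound by E2F factors at genes of the S phase, were found in 1 of 43 member promoters (2.33%), against 1.84% of all. For comparison, 14 of 33 promoters of DNA replication genes (42.4%) held those E2F letters and 8 of 33 (24.2%) a CHR core. The median GC content was 59.0% in the member promoters and 52.7% in all promoters. A match describes the letters in the window and does not show that a factor was bound.

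The cores sat close to the start of transcription. Of the 51 cores in the member promoters, 37 (72.5%) lay within 50 bases of the start, against 25.1% of the cores in all promoters. Of the 51 cores, 24 began in the 50 bases after the start. Of the 75 CCAAT boxes, 49 (65.3%) lay in the 100 bases before the start, against 43.6% in all promoters. With the windows exchanged the shares were closer. In the 100 bases before the start lay 31.4% of the member cores, against 31.1% in all promoters. Within 50 bases of the start lay 34.7% of the member boxes, against 28.2%. The 11 stretches of 120 bases below were chosen to show where cores and boxes lie in genes that rose in lesional skin and in genes that were not called, and each is printed 5′ to 3′ on the strand of its gene. Capitals mark the CHR core (TTTGAA, or TTCAAA where it reads on the other strand) and the CCAAT box (CCAAT, or ATTGG where it reads on the other strand). The first 7 stretches come from genes that rose in lesional skin and the last 4 from genes that were not called there.
Cdk1, chr10:69352913-69353032, minus strand: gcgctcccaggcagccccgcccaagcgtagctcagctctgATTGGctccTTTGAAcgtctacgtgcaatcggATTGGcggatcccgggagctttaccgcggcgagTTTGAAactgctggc
Cdc20, chr4:118437344-118437463, minus strand: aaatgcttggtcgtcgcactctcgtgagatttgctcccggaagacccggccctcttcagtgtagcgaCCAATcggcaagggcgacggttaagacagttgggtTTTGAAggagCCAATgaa
Ccnb2, chr9:70421535-70421654, minus strand: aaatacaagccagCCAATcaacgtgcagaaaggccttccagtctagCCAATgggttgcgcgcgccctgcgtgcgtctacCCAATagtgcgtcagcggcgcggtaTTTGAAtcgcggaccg
Kif11, chr19:37376262-37376381, plus strand: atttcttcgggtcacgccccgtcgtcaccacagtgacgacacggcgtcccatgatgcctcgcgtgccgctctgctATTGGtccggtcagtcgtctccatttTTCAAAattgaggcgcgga
Top2a, chr11:99024190-99024309, minus strand: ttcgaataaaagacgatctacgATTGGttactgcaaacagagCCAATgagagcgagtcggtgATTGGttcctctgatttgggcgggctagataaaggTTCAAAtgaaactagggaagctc
Hmmr, chr11:40733418-40733537, minus strand: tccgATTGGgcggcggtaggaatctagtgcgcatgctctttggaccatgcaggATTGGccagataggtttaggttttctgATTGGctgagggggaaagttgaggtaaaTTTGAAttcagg
Racgap1, chr15:99651637-99651756, minus strand: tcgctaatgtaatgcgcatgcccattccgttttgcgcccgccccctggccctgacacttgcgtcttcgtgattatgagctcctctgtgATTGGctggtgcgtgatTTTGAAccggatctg
Ect2, chr3:27153879-27153998, minus strand: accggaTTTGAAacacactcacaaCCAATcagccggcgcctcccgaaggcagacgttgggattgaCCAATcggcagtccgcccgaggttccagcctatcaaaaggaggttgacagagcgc
Kif23, chr9:61946780-61946899, minus strand: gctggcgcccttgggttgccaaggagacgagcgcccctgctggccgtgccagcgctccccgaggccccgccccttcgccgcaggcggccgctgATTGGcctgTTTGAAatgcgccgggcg
Cenpf, chr1:189688067-189688186, minus strand: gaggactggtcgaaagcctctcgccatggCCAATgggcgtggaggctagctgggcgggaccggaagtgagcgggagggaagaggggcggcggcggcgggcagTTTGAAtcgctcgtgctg
Mki67, chr7:135716380-135716499, minus strand: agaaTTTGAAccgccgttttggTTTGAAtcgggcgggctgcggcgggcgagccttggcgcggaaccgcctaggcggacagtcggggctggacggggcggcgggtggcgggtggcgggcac
In the stretches of Cdk1, Cdc20, Kif11, Top2a, Ect2 and Mki67 the base before the start is the last one printed, and the other 5 include the first 20 transcribed bases. Cdk1 carries 2 cores and 2 boxes, Ccnb2 a core that follows 3 boxes, and Mki67 2 cores with no box in the stretch shown. In the stretches of Ect2 and Mki67 every core lies farther than 50 bases from the start, as does 1 of the 2 cores of Cdk1, at base -71. Outside its stretch Ect2 has a core at base 40 after the start, and Mki67 outside its own has boxes at bases -188, -166 and -141. Ccnb2, Top2a and Cenpf have a further core upstream of their stretches, at bases -167, -179 and -154. Cenpf and Kif23, the pair of members with a negative difference between lesional and non-UV skin, carry a core and a box, as the 7 rising genes printed do. Only stretches holding a core were printed, so a core in each was fixed by that choice. Not every matched member that rose holds both elements. Melk has neither, Bub1 has no core, and Birc5, Kif2c and Ndc80 have no box.

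The deposited tables gave, for each gene, a log2 fold change between the means of the groups, the statistic of DESeq2's Wald test and an adjusted p, and no value per library. So the values of single libraries, the overlap of groups and the depth of each library are not given here, and the spread between libraries enters through the standard error (SE), taken as the log2 fold change divided by the Wald statistic. A gene was called where its adjusted p was under 0.05. The labels number the libraries 1 to 3 in each group without saying whether the same number marks the same animal, and a p-value here speaks only of the variation among the libraries sequenced. In bulk skin, fewer dividing cells and less RNA per dividing cell cannot be told apart. The file headers call the unexposed skin back skin, and whether exposure or body site set it apart cannot be told apart either. For 12 of the 48 genes, exons overlap those of a gene on the opposite strand in the GENCODE annotation: Ccna2, Cdc25c, Plk1, Nek2, Cdc20, Ube2c, Knstrn, Cdca8, Kif4, Nusap1, Kif20a and Prc1. Exons of Foxm1 overlap those of other coding genes on its own strand. The kit keeps strand, but the strand setting of the counting was not given in the sources used here, so the values of these genes are uncertain to that extent.

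Mitosis genes were higher in placebo lesional than in non-UV skin. In the authors' deposited table, 29 of the 48 rose and 0 fell, where 10.2% of the 15201 genes tested rose and 8.17% fell. The 48 had a median log2 fold change of 1.03, against 0.08 over all genes tested, and ranged from -0.26 in Kif23 to 1.72 in Plk1. In lesional skin under GZ21T, 7 of the 46 members tested were lower than in placebo lesional skin and 0 were higher in the authors' deposited table, where 2.29% of 10899 genes were lower and 1.31% higher. The median over the 46 was -1.02, against -0.06 over all genes, and the log2 fold change was negative in 45 of them. At an unadjusted p under 0.05 by DESeq2, 40 of 48 members differed in lesional over non-UV skin, all 40 of them higher. Of all genes tested there 31.4% passed that threshold, 2614 higher and 2155 lower. Under GZ21T 38 of 46 members passed it, all 38 of them lower. Of all genes tested under GZ21T 22.9% passed, 967 higher and 1531 lower. Spc25 and Ska1 carried no adjusted p in that table. Both comparisons contain the 3 placebo lesional libraries, so a high value there gives a positive sign in the first and a negative sign in the second, and the values are set side by side below without a test between them. The count under GZ21T rested on adjusted p-values close to the threshold, from 0.030 to 0.048. It was 1 of 7, Birc5, when p-values were adjusted over all genes with a p, and again 1, Birc5, when fold changes were centred on the median of all genes.

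**Figure D1:**
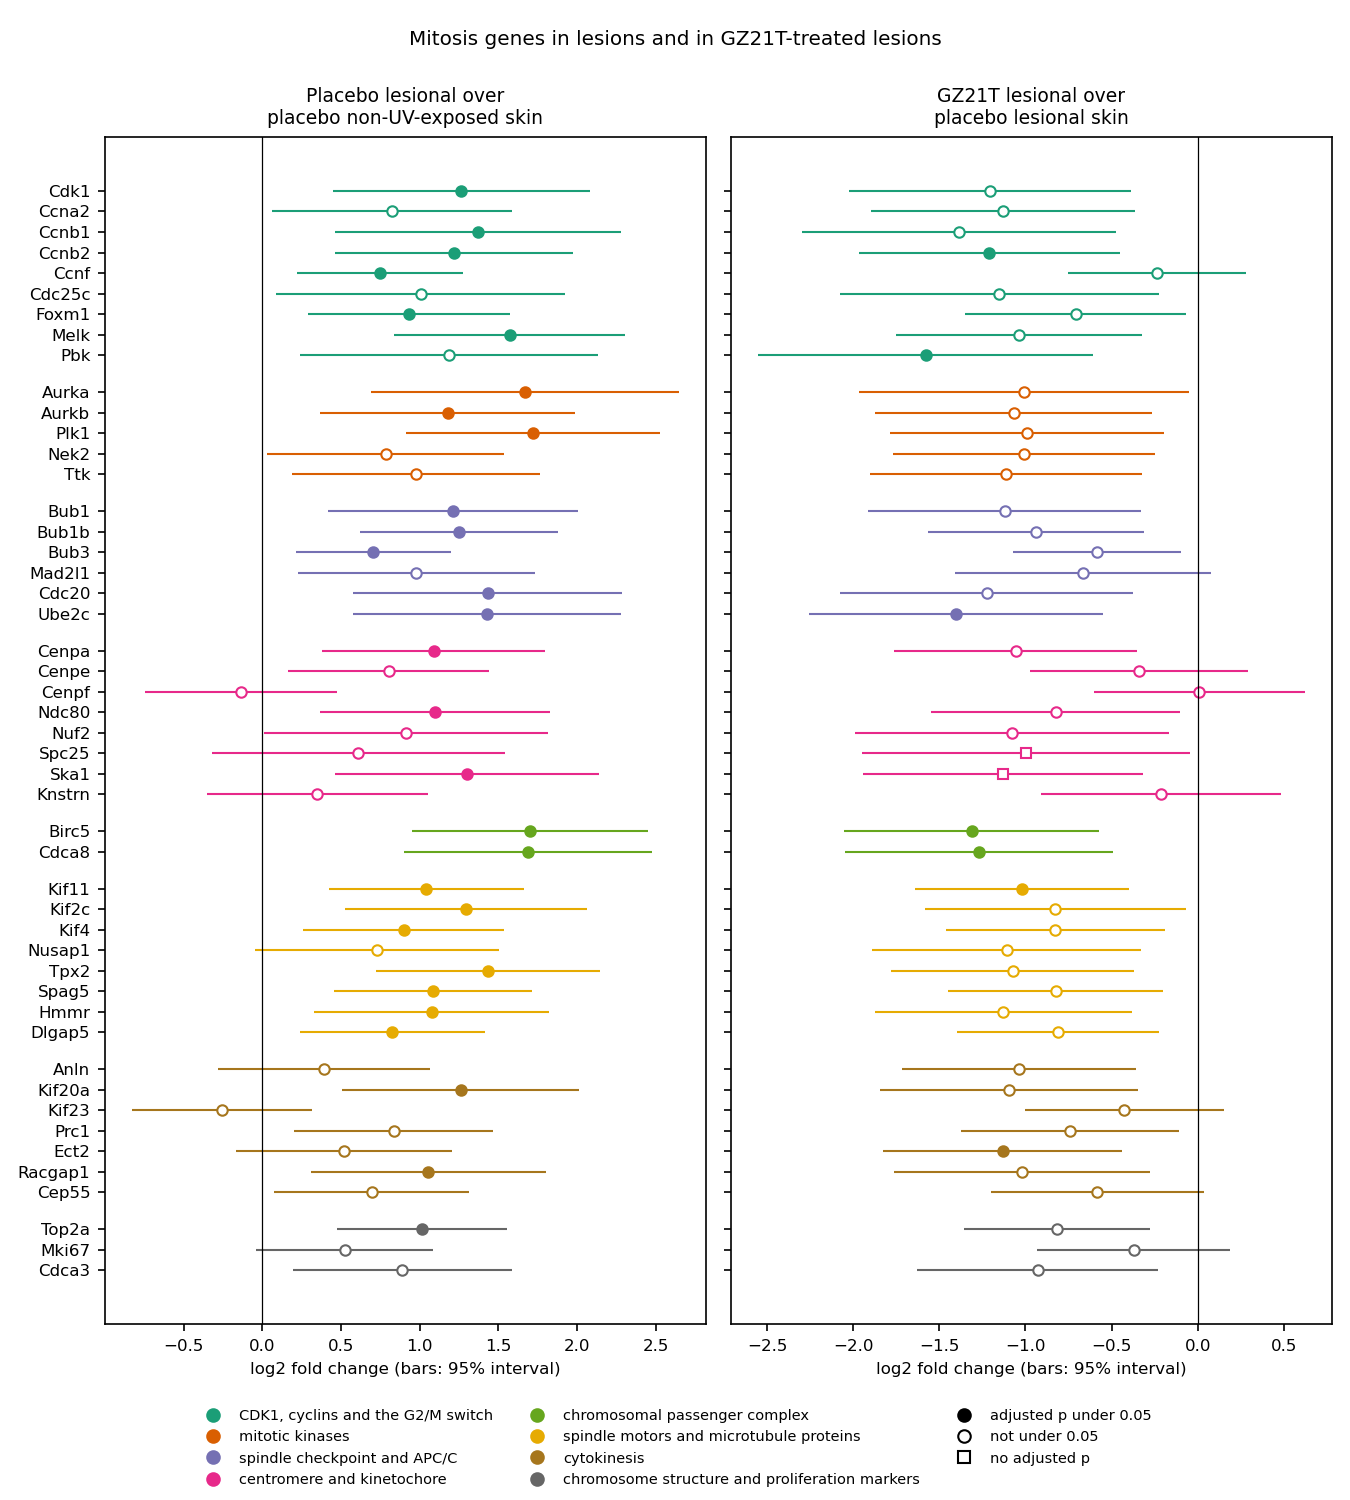
Log2 fold change with 95% interval for each of the 48 genes, grouped by role, in placebo lesional over non-UV skin and in GZ21T lesional over placebo lesional skin; filled points are genes called at an adjusted p under 0.05, open points those not called and squares those with no adjusted p. The left comparison holds 29 filled points, all above 0, and the right one 7, all below 0, with 3 libraries per group.

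CDK1, the cyclins and the regulators of the G2 to M switch rose in 6 of 9 members in lesional skin, with a median of 1.19. Cdk1 itself was 2.40-fold higher (log2 fold change 1.26 ± 0.42 SE, adjusted p = 0.020 by the authors' DESeq2 Wald test in the deposited table). Its partners cyclin B1 (Ccnb1, 1.37 ± 0.46) and cyclin B2 (Ccnb2, 1.22 ± 0.39) also rose in the authors' deposited table. Melk, a kinase used as a marker of dividing progenitors, had the largest difference of this role in the authors' deposited table at 1.57 ± 0.37. Foxm1, the transcription factor of the G2/M programme, rose by 0.93 ± 0.33 there, and Ccnf, the cyclin that serves as a ubiquitin ligase subunit, by 0.75 ± 0.27. Cyclin A2 (Ccna2), active from S phase to early mitosis, stood at 0.82 ± 0.39 with an adjusted p of 0.12 in the authors' deposited table (DESeq2), and was not called. Cdc25c, the phosphatase that activates Cdk1, was at 1.01 ± 0.47, and Pbk, a mitotic kinase, at 1.19 ± 0.48, neither of them called in the authors' deposited table.

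Under GZ21T, 2 of these 9 genes fell. In the authors' deposited table Ccnb2 was 2.31-fold lower than in placebo lesional skin (log2 fold change -1.21 ± 0.39 SE, adjusted p = 0.048, DESeq2), and Pbk was 2.99-fold lower (-1.58 ± 0.50, adjusted p = 0.045), the most negative value of the 48. Cdk1 (-1.21 ± 0.42) and Ccnb1 (-1.39 ± 0.46) had differences as large in the authors' deposited table, but adjusted p-values of 0.068 and 0.061 by DESeq2. Ccnf, at -0.24 ± 0.26 in that deposited table, had the smallest difference of this role, with an interval from -0.75 to 0.28.

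Of the 5 mitotic kinases, 3 rose in lesional skin. Plk1, the polo-like kinase that acts on centrosomes, kinetochores and the cleavage furrow, was 3.29-fold higher (1.72 ± 0.41, adjusted p = 0.00087, DESeq2, the authors' deposited table). Aurka, the centrosome kinase, rose by 1.67 ± 0.50 and Aurkb, the kinase of the chromosomal passenger complex, by 1.18 ± 0.41 in the authors' deposited table. Nek2, which separates centrosomes, was at 0.78 ± 0.38, and Ttk, the checkpoint kinase also called Mps1, at 0.98 ± 0.40 in the authors' deposited table, both short of the threshold. Under GZ21T none of the 5 was called, although in the authors' deposited table they lay between -0.99 for Plk1 and -1.11 for Ttk, and each had an unadjusted p under 0.05 by DESeq2.

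Spindle checkpoint and APC/C genes rose in 5 of 6 cases, with a median of 1.23. The authors' deposited table gave Cdc20, the activator of the APC/C, a log2 fold change of 1.43 ± 0.44. Ube2c, the enzyme that hands ubiquitin to APC/C substrates, had 1.43 ± 0.43 in the same deposited table from the authors' DESeq2 fit. The checkpoint kinase Bub1 (1.21 ± 0.41), its relative Bub1b (1.25 ± 0.32) and their partner Bub3 (0.71 ± 0.25) also rose in the authors' deposited table. Mad2l1, the checkpoint protein that holds Cdc20 inactive, was at 0.98 ± 0.38 with an adjusted p of 0.057 (DESeq2, the authors' deposited table). GZ21T lesions had 1 call among the 6: Ube2c was 2.65-fold lower (-1.40 ± 0.43, adjusted p = 0.042, DESeq2, the authors' deposited table). Exons of Ube2c overlap those of Tnnc2, a skeletal muscle troponin gene, on the opposite strand, and those of Cdc20 overlap Elovl1.

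Centromere and kinetochore genes rose in 3 of 8 cases in lesional skin, with a median of 0.86. Cenpa, the histone that marks the centromere, rose by 1.09 ± 0.36 in the authors' deposited table. Ndc80, the microtubule-binding subunit, rose by 1.10 ± 0.37 and Ska1, which strengthens that attachment, by 1.30 ± 0.43 in the authors' deposited table. Nuf2 (0.91 ± 0.46) and Spc25 (0.61 ± 0.47), the partners of Ndc80 in the same complex, were not called in the authors' deposited table. Cenpe, a kinetochore motor, was at 0.80 ± 0.32 there and Knstrn, a kinetochore adaptor, at 0.35 ± 0.36. Cenpf, a large kinetochore protein of late G2, was at -0.14 ± 0.31 in lesional over non-UV skin and 0.01 ± 0.31 in GZ21T over placebo lesional skin in the authors' deposited tables. Its interval in lesional skin, -0.75 to 0.47 as computed from that deposited table, lies below the point values of Cenpa, Ndc80 and Ska1. It overlaps their intervals, which were 0.38 to 1.80, 0.37 to 1.83 and 0.46 to 2.14 in that order. A test of the difference between genes was not run. Of the 6 members of this role tested under GZ21T, 0 were called by the authors' DESeq2 Wald test and 3 had an unadjusted p under 0.05.

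Birc5 and Cdca8, subunits of the chromosomal passenger complex, rose in lesional skin and fell under GZ21T. The kinase subunit Aurkb rose in lesional skin and was at -1.07 ± 0.41 under GZ21T, short of the threshold (adjusted p = 0.096, DESeq2, the authors' deposited table). The scaffold subunit Incenp, outside the 48 genes and named after its values were seen, was called in neither (adjusted p = 0.064 and 0.32, DESeq2, the authors' deposited tables). Birc5 (survivin), which docks the complex on centromeres, was 3.25-fold higher in lesional skin (1.70 ± 0.38, adjusted p = 0.00032, DESeq2, the authors' deposited table), the smallest adjusted p among the 48. Cdca8 (borealin), its partner, was 3.22-fold higher (1.69 ± 0.40, adjusted p = 0.00083, DESeq2, the authors' deposited table). Under GZ21T, Birc5 was 2.48-fold lower (-1.31 ± 0.38, adjusted p = 0.030) and Cdca8 2.41-fold lower (-1.27 ± 0.40, adjusted p = 0.044) than in placebo lesional skin, by DESeq2 in the authors' deposited table.

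Spindle motors and microtubule proteins rose in 7 of 8 cases, the exception being Nusap1. Tpx2, which activates Aurora A on the spindle, rose by 1.43 ± 0.36 in the authors' deposited table, and Kif2c, a kinesin that takes microtubules apart at centromeres, by 1.30 ± 0.39. Kif11, the motor that pushes the spindle poles apart, rose 2.06-fold (1.04 ± 0.32, adjusted p = 0.011, DESeq2, the authors' deposited table). The spindle proteins Spag5 (1.09 ± 0.32), Hmmr (1.08 ± 0.38) and Dlgap5 (0.83 ± 0.30) and the chromosome kinesin Kif4 (0.90 ± 0.33) also rose there in the authors' deposited table. Nusap1, which bundles spindle microtubules, was at 0.73 ± 0.40 with an adjusted p of 0.19 by DESeq2 in the authors' deposited table. Under GZ21T only Kif11 of these 8 was called, 2.03-fold lower (-1.02 ± 0.32, adjusted p = 0.044, DESeq2, the authors' deposited table). The other members of this role lay between -0.81 for Dlgap5 and -1.13 for Hmmr in the authors' deposited table.

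Cytokinesis genes were called in 2 of 7 cases in lesional skin, with a median of 0.69. Kif20a, a kinesin of the central spindle, rose by 1.26 ± 0.38 and Racgap1, a subunit of centralspindlin, by 1.06 ± 0.38 in the authors' deposited table. Kif23, the kinesin partner of Racgap1 in centralspindlin, stood at -0.26 ± 0.29 in the authors' deposited table, with an interval from -0.83 to 0.32. Prc1, which bundles the midzone, was at 0.83 ± 0.32, Cep55, an abscission factor, at 0.69 ± 0.32, and Anln, the furrow scaffold, at 0.39 ± 0.34 in the authors' deposited table. Ect2, the exchange factor that activates RhoA at the furrow, was at 0.52 ± 0.35 in lesional over non-UV skin and was not called (adjusted p = 0.31, DESeq2, the authors' deposited table). Under GZ21T, in contrast, Ect2 was the one cytokinesis gene called, 2.19-fold lower than in placebo lesional skin (-1.13 ± 0.35, adjusted p = 0.045, DESeq2, the authors' deposited table). Kif20a (-1.10, adjusted p = 0.070), Anln (-1.04, 0.061) and Racgap1 (-1.02, 0.087) had differences nearly as large by the same DESeq2 test. The 7 genes ranged from -1.13 in Ect2 to -0.43 in Kif23, with a median of -1.02, and 5 had an unadjusted p under 0.05 by DESeq2. Pbk and Ect2 were therefore called as lower under GZ21T and not called as higher in placebo lesional skin. Pbk missed the threshold there narrowly, at 1.19 with an adjusted p of 0.069 (DESeq2, the authors' deposited table).

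Of the remaining genes, Top2a, the topoisomerase that untangles sister chromatids, rose 2.02-fold (1.01 ± 0.28, adjusted p = 0.0039, DESeq2, the authors' deposited table). Mki67, the gene of the Ki-67 protein that pathologists stain to count dividing cells, was at 0.52 ± 0.29 (adjusted p = 0.19, DESeq2, the authors' deposited table), with an interval from -0.04 to 1.09. Cdca3, a cofactor for degrading the mitosis inhibitor Wee1, was at 0.89 ± 0.36 in the authors' deposited table. Under GZ21T the 3 genes lay at -0.82, -0.37 and -0.93 in the authors' deposited table, and 0 were called, with Top2a and Cdca3 at an unadjusted p under 0.05 by DESeq2.

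The spread among members ran partly with transcript length. Across the 48 genes, Spearman's rho between the length of the longest coding transcript in GENCODE and the log2 fold change in lesional over non-UV skin was -0.43, against -0.17 across all genes tested. The 24 shorter members, under 3280.5 bases, had a median of 1.14 and the 24 longer ones 0.92. For GZ21T over placebo lesional skin rho was 0.53 across 46 members and 0.20 across all genes, with medians of -1.06 and -0.83. Elsewhere rho across members was smaller in size. It was -0.31 in non-lesional over non-UV skin (all genes -0.10) and -0.33 in perilesional over non-lesional skin (all genes -0.19). In lesional over perilesional skin it was -0.18 (all genes -0.07), and in GZ21T lesional over placebo non-lesional skin 0.18 (all genes -0.09). Genes are not independent replicates, and these values come from 1 set of libraries. The longest transcripts of the set belong to Cenpf (11130 bases) and Mki67 (10061 bases), 2 of the members with small differences. The next longest, Cenpe (7910 bases) and Mad2l1 (7557 bases), were at 0.80 and 0.98 in lesional over non-UV skin. Kif23, the lowest member there, has 3398 bases. The part of length in the result was not tested.

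The responses were also set beside the promoter elements shown above. Among 27 members with both a CHR core and a CCAAT box in a matched promoter, 18 rose in lesional skin, with a median of 1.04. Among the 12 matched members lacking one or both, 5 rose, with a median of 0.95. Under GZ21T the medians were -0.996 and -1.02. These counts describe the set and were not tested.

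Placebo skin outside the lesion showed no member call. Non-lesional over non-UV skin gave 0 calls among the 48, where 1.66% of 14124 genes were called by DESeq2 in the authors' deposited table. All 48 log2 fold changes were positive there, from 0.02 to 0.89, with a median of 0.53 against -0.02 over all genes. At an unadjusted p under 0.05 by the authors' DESeq2 Wald test, 5 members passed (10.4%): Ccnf, Top2a, Plk1, Birc5 and Cdca8. Of all 14124 genes 1415 passed, 714 of them higher and 701 lower, whereas all 5 members were higher. Ccnf had the smallest adjusted p, 0.087 by DESeq2, with 0.84 ± 0.27 in the authors' deposited table. Plk1 was at 0.89 ± 0.42 and Top2a at 0.64 ± 0.28 in the authors' deposited table. The 48 values share the 3 non-UV libraries as a denominator, so their common sign is not 48 separate observations.

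Perilesional over non-lesional skin gave 0 calls among the 48 as well, where 0.112% of 15201 genes were called in the authors' deposited table, and 0 members passed an unadjusted p under 0.05 by DESeq2, against 7.83% of all genes. The median was 0.13, the range -0.39 to 0.58, and 32 of 48 were positive. Mki67, for instance, was at -0.10 ± 0.29 in the authors' deposited table.

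Lesional over perilesional skin was derived from the deposited tables, with an SE that holds if the authors fitted group alone in 1 model. It gave 0 calls among the 48, where 0.533% of 15187 genes were called. At an unadjusted p under 0.05 by the normal test on the derived values, 3 members (6.25%) passed, all of them higher. Of all genes 10.5% passed, 1061 of them higher and 529 lower. The 3 were Bub3 (0.54 ± 0.25), Birc5 (0.81 ± 0.37) and Cdca8 (0.84 ± 0.39). The median was 0.49 against 0.05 over all genes, and 45 of 48 values were positive. Non-lesional over non-UV and lesional over perilesional skin share no library. Across the 48 genes their log2 fold changes had a Pearson's r of -0.01 and a Spearman's rho of -0.05, a description over genes and not over samples.

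**Figure D2:**
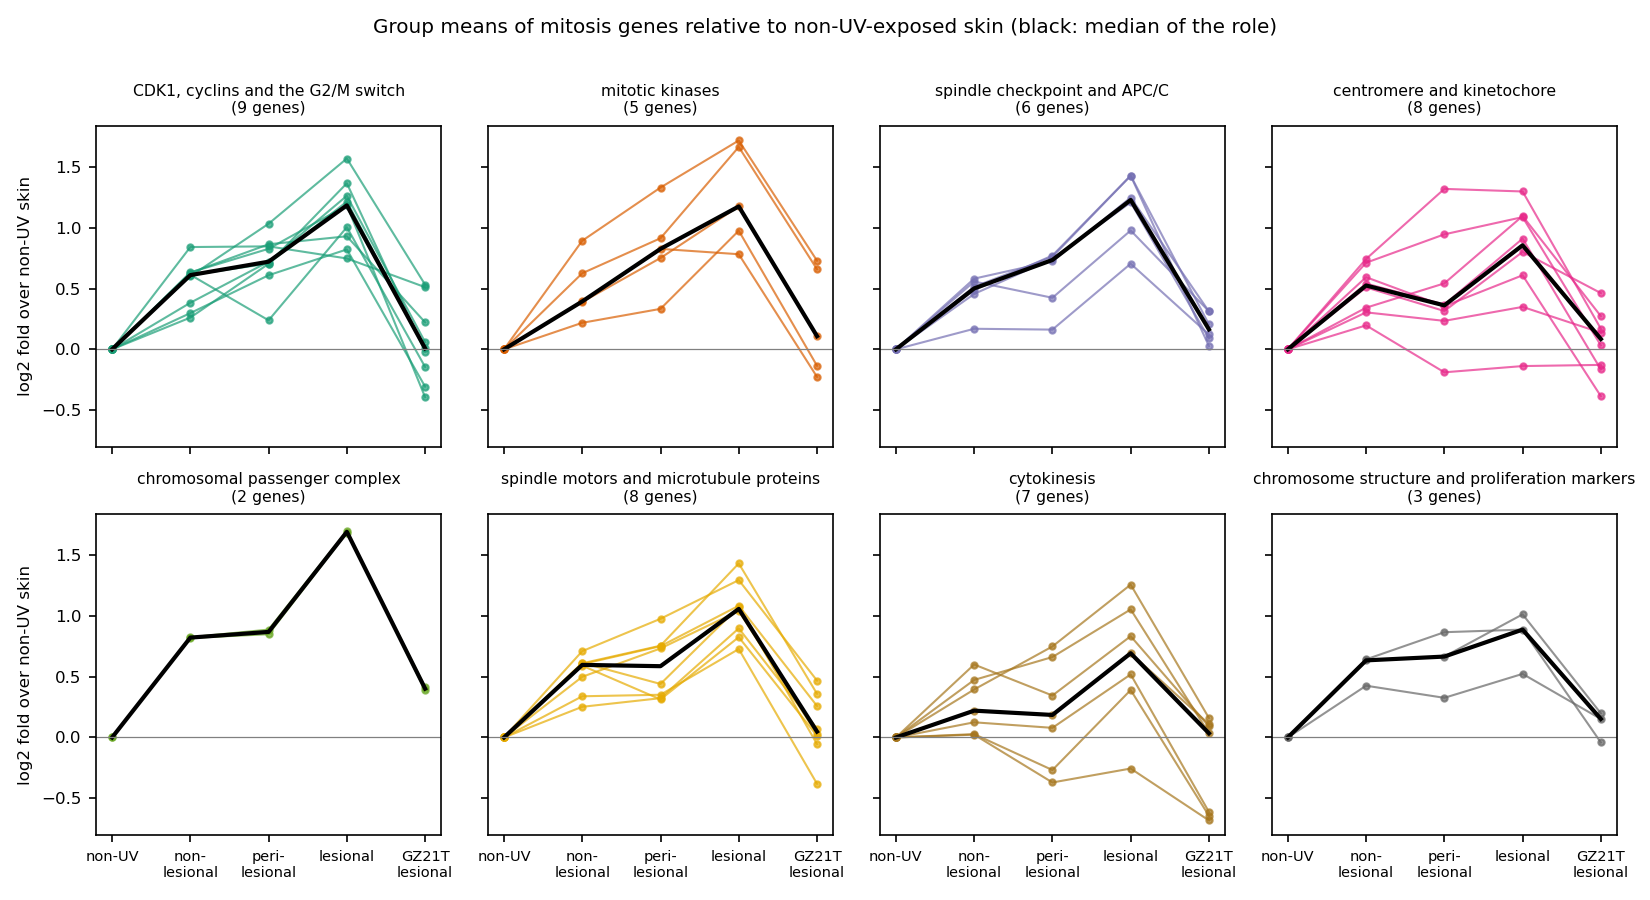
Log2 fold change over non-UV skin for each gene, by role, in non-lesional, perilesional, lesional and GZ21T lesional skin; coloured lines join the values of 1 gene from non-UV skin, set at 0, and the black line is the median of the role. Medians of Birc5 and Cdca8, the passenger complex panel, are 0.82, 0.87, 1.69 and 0.40 in that order, and those of the G2/M switch 0.61, 0.72, 1.19 and 0.01.

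The order of the 4 skins was read from folds over non-UV skin, of which the perilesional and the GZ21T values were sums of deposited log2 fold changes and carry no SE. Over all 48 genes the medians were 0.53 in non-lesional, 0.71 in perilesional, 1.03 in placebo lesional and 0.09 in GZ21T lesional skin. For non-lesional against perilesional skin, neighbours in that order, 0 members were called. Lesional over non-lesional skin, likewise derived without an SE, had a median of 0.53 against 0.10 over all genes, with 45 of 48 values positive. In GZ21T lesional skin 33 of the 48 values lay above non-UV skin and 15 below it. Plk1 (0.73), Aurka (0.66) and Melk (0.53) were highest there, and Kif23 (-0.68), Anln (-0.65) and Ect2 (-0.61) lowest.

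GZ21T lesional over placebo non-lesional skin, derived in the same way, shares no library with lesional over non-UV skin. It gave 0 calls among 46 members and 0% of 10899 genes. At an unadjusted p under 0.05 by the normal test on the derived values, 3 members (6.52%) passed, all of them lower. Of all genes 3.23% passed, 131 of them higher and 221 lower. Those 3 were Pbk (-1.03 ± 0.50), Kif23 (-0.71 ± 0.29) and Ect2 (-0.74 ± 0.36). The median was -0.36, and the range -1.03 to 0.03. For Cdk1 the derived difference was -0.32 with an interval from -1.15 to 0.50, and for Birc5 -0.44 with an interval from -1.18 to 0.31. A p that misses the threshold does not show that GZ21T lesions and uninvolved placebo skin have the same level.

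**Figure D3:**
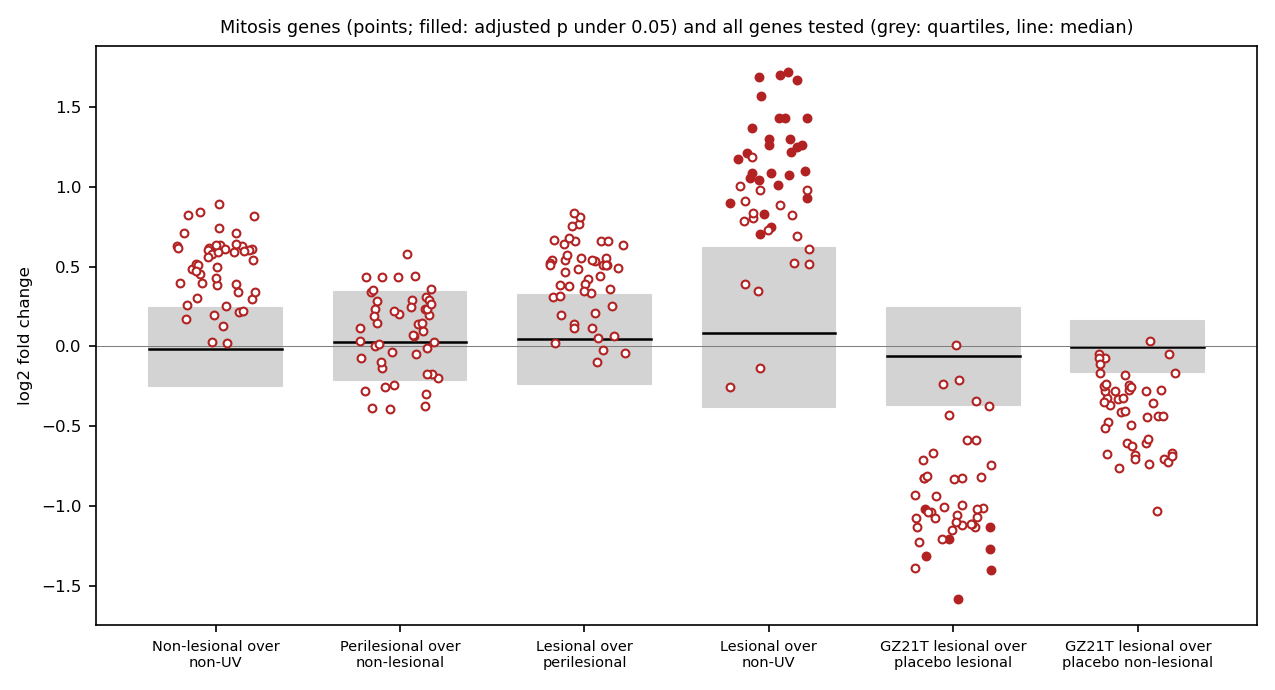
Log2 fold changes of the 48 genes in the 4 deposited and 2 derived comparisons, 1 point per gene with an adjusted p, filled where it was under 0.05; grey boxes span the quartiles of all genes tested and the black line is their median. The median of the 48 genes is 1.03 in lesional over non-UV skin, where that of all genes is 0.08. In GZ21T over placebo lesional skin the median of the 46 genes tested is -1.02, where that of all genes is -0.06.

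Other genes of the cell cycle were followed in 7 lists. Over all genes tested, 10.2% rose and 8.17% fell in lesional over non-UV skin, and 2.29% fell under GZ21T. Counts in the smaller lists are to be read beside those shares. Of 66 further mitosis genes, 24 rose and 0 fell in lesional skin, with a median of 0.80, and 6 of the 55 tested fell under GZ21T. In the authors' deposited tables Ube2s, the enzyme that extends ubiquitin chains for the APC/C, rose by 1.12 ± 0.28 and was at -1.09 ± 0.28 under GZ21T. Cks1b, a small subunit of CDK complexes, had 1.79 ± 0.46 and -1.60 ± 0.46 in those 2 tables of the authors' deposited set. Smc2, a condensin subunit, was at 1.09 ± 0.28 and -1.01 ± 0.28, and Tacc3, a spindle protein, at 1.26 ± 0.32 and -1.04 ± 0.32 in the authors' deposited tables, all 4 called in both.

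DNA replication genes rose in 14 of 35 cases and fell in 0, with a median of 0.85, and 2 of 31 fell under GZ21T. Rrm2, the ribonucleotide reductase subunit made in S phase, rose by 2.16 ± 0.41 (adjusted p = 1.2e-05, DESeq2, the authors' deposited table), more than any of the 48 mitosis genes. Under GZ21T it was at -1.23 ± 0.40 and not called (adjusted p = 0.053, DESeq2, the authors' deposited table), while its partner Rrm1 fell by 0.90 ± 0.26. The helicase subunits Mcm4 (1.55 ± 0.39) and Mcm5 (1.80 ± 0.48) and the loader Mcm10 (1.94 ± 0.48) rose in lesional skin in the authors' deposited table.

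Regulators of G1 and S entry moved in both directions, 5 higher and 2 lower of 25 in lesional skin. Cyclin E1 (Ccne1, 2.00 ± 0.54) and cyclin D3 (Ccnd3, 0.96 ± 0.20) rose and cyclin D2 (Ccnd2) fell by 1.98 ± 0.46 in the authors' deposited table. Cyclin D1 (Ccnd1) was at 0.83 ± 0.44 and cyclin E2 (Ccne2) at 0.65 ± 0.36 in the authors' deposited table, neither called. The repressors E2f7 (1.81 ± 0.46) and E2f8 (1.33 ± 0.28), which are themselves made in S phase, and Myc (0.92 ± 0.28) rose there in the authors' deposited table. Under GZ21T, 2 of 23 in this list fell, of which one was Ccnd3 (-0.62 ± 0.20, adjusted p = 0.049, DESeq2, the authors' deposited table).

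Among 7 CDK inhibitors, 1 rose. Cdkn2a, which encodes p16INK4a and p19ARF, was at 4.07 ± 0.61 in lesional over non-UV skin (adjusted p = 1.8e-08) and had already risen in non-lesional skin (2.50 ± 0.62, adjusted p = 0.0080, DESeq2, the authors' deposited tables). Under GZ21T Cdkn2a was at -1.32 ± 0.50 and not called (adjusted p = 0.093, DESeq2, the authors' deposited table). Cdkn1a, the p53 target p21, was at 0.54 ± 0.31 and Cdkn1c at -2.24 ± 0.88 in lesional skin, neither called in the authors' deposited table. Cdkn1b (-0.29 ± 0.23), Cdkn2b (0.12 ± 0.22), Cdkn2c (0.38 ± 0.36) and Cdkn2d (0.33 ± 0.36) had smaller differences in the authors' deposited table.

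The DREAM and MYB-MuvB subunits, which act on the CHR, rose in 2 of 10 cases. Mybl2, the MYB subunit made in dividing cells, rose by 1.25 ± 0.45 and Lin54, the subunit that touches the CHR, by 0.62 ± 0.23 in the authors' deposited table. Subunits of the APC/C and its G1 activator Fzr1 had 0 calls of 15 in lesional skin by the authors' DESeq2 Wald test, 3 of them at an unadjusted p under 0.05, with a median of 0.29 in the deposited table. G2 checkpoint and mitotic entry controllers had 1 call of 14, Atm, the DNA damage kinase, which fell by 0.59 ± 0.19 in the authors' deposited table. The CHR core was found in 54.1% of the promoters of the further mitosis genes and 24.2% of those of replication genes.

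**Figure D4:**
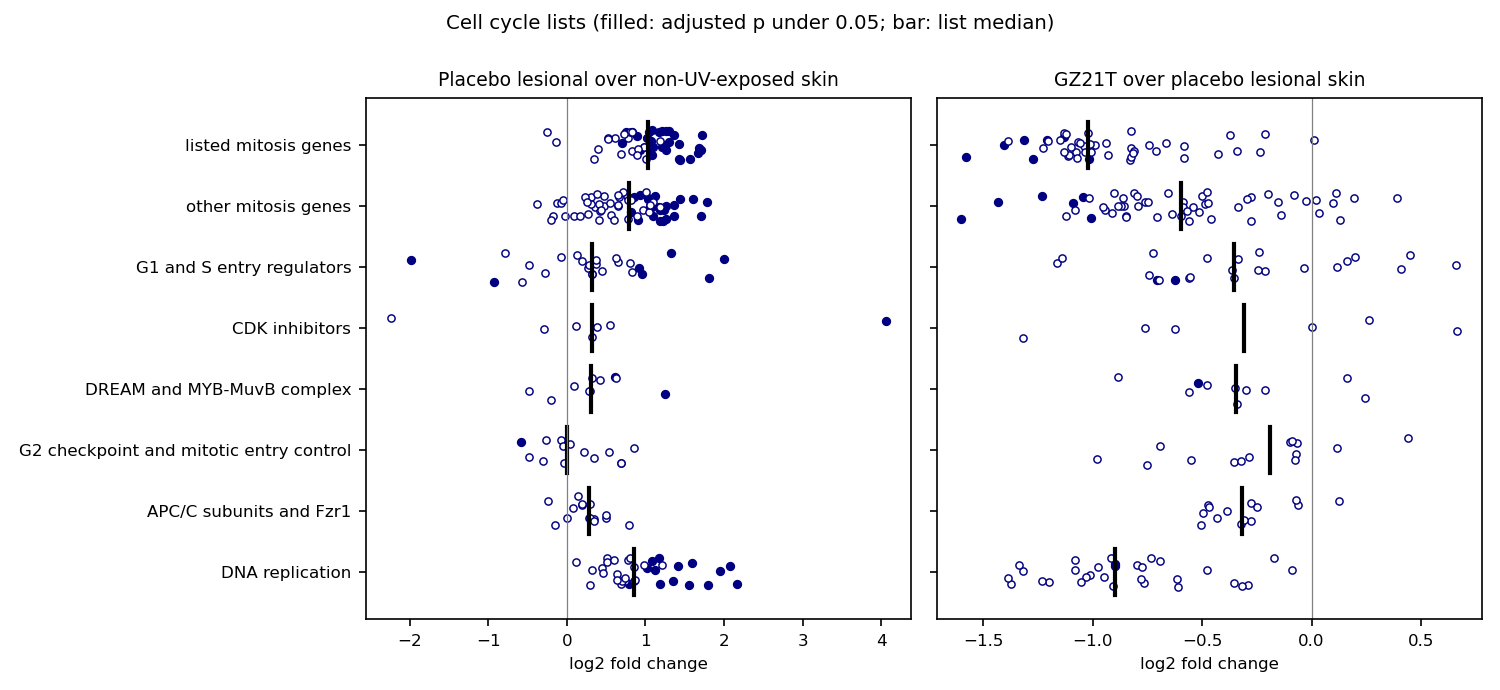
Log2 fold changes of the 48 mitosis genes and of 7 further cell cycle lists in placebo lesional over non-UV and GZ21T lesional over placebo lesional skin, 1 point per gene tested, filled where the adjusted p was under 0.05, with a bar at the median of each list. In lesional over non-UV skin the medians are 1.03 for the 48 genes, 0.85 for DNA replication and 0.01 for the G2 checkpoint list.

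Markers of cell types in skin were read in the same comparison, in 13 lists, of which that of B and plasma cells had 0 genes tested. Over all genes tested, 10.2% rose and 8.17% fell in lesional over non-UV skin, and 1.31% were higher under GZ21T. All 7 markers of stressed keratinocytes rose in lesional skin, with a median of 4.50, and in the authors' deposited table Krt6a was at 4.50 ± 0.51 there. Under GZ21T 0 of those 7 were called and 2 had an unadjusted p under 0.05 (DESeq2), with Krt6a at -0.78 ± 0.51 in the authors' deposited table. Of 10 basal keratinocyte markers 1 rose and 3 fell, with Krt14 at 0.95 ± 0.35 and Krt15 at -2.78 ± 0.46 in the authors' deposited table. Suprabasal markers fell in 4 of 9 cases and rose in 1 in lesional skin, and 4 of 9 were higher under GZ21T, where the authors' deposited table gave Lor, a cornified envelope protein, 1.76 ± 0.49. Hair matrix and shaft markers fell in 4 of 20 cases, with a median of -2.47, and endothelial markers rose in 3 of 7, with a median of 3.02. Sebaceous gland markers rose in 4 of 10 cases, with a median of 1.71, and T and NK cell markers rose in 1 and fell in 2 of 11. Of 5 adipocyte markers 1 rose, while the other 4 were negative and not called, with a list median of -1.67. Macrophage and fibroblast markers had 0 calls of 9 and of 7 by DESeq2, with 1 of each at an unadjusted p under 0.05, and skeletal muscle and melanocyte markers 0 of 8 and of 5, with 0 at that threshold. All 8 skeletal muscle values were positive, with a median of 1.95 and a wide median SE of 1.59. No summed level can be given from these tables, and the part of cell composition in the mitosis result was not tested.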

How the data were processed

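A stranded kit was used on total RNA of mouse skin, per the labels' protocols. The submitters' processing notes name Trim Galore, DESeq2 and GRCm38 (mm10), while the aligner, the counting, the annotation, the model's terms and versions were not given in the sources used here. Each of the 4 tables deposited by the authors holds 1 comparison as a log2 fold change, a score that is the Wald statistic, a p-value and an adjusted p-value, per the file headers. The tables give no values per library, so depth is not known here.

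Directions were taken from the headers, and the GZ21T table, headed placebo over GZ21T, was turned so that negative values are lower under GZ21T. The table named for perilesional against lesional skin is by its header lesional over back skin, and back skin was taken as the non-UV group because it is the one placebo group left. Of 1423 genes that the non-lesional over non-UV table lists at 0, 704 were positive and 0 negative in the lesional table, as a shared non-UV group without reads gives. Up to 27 rows per table whose symbols had been turned into dates were removed.

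From these values the SE was computed as log2 fold change over Wald statistic, and intervals at 95% as the normal interval around it. Comparisons without a table were derived by adding or subtracting deposited log2 fold changes. For 2 of them the SE follows from the squared deposited SEs if 1 model with group alone was fitted, tested by a normal p with Benjamini-Hochberg adjustment over all genes; the other 3 are given as folds with no test. Calls used an adjusted p under 0.05 over every gene a table gives one. The scripts were tested on simulated data.

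The members and all gene lists were chosen with earlier results of these data known. Every member could be named. From each further cell cycle list up to 6 genes with the smallest adjusted p in lesional over non-UV skin, all cyclins and all CDK inhibitors could be named, and from each marker list up to 4. Alternatives were other filters, thresholds and adjustments, centring on the median and a minimum fold. Python 3.11.15, pandas 2.3.3, numpy 2.4.6, scipy 1.17.1 and matplotlib 3.10.9 were used.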

Additional observations from a re-analysis of the deposited data

How the results depend on the processing

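The count of members higher in lesional over non-UV skin was 29 as reported. It was 9 at an adjusted p under 0.01 and 0 with Holm's adjustment, and within 1.5 times of 29 with no filter, with genes tested in every table, at 0.1, with a minimum log2 fold change of 1 and after centring on the median of all genes. The count lower under GZ21T was 7 as reported. It was 28 at an adjusted p under 0.1, 1 with no filter, 1 after centring, 0 at 0.01 and 0 with Holm's adjustment, and the cause of these differences was not tested. In non-lesional over non-UV skin 1 member, Ccnf, passed at 0.1. The 0 calls in perilesional over non-lesional, lesional over perilesional and GZ21T lesional over placebo non-lesional skin stayed 0 under each alternative run. No log2 fold change of a called member changed sign. No paired analysis was possible because the tables hold no value per library, and for the same reason no library could be left out in turn.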
